A study of Rattus norvegicus with 8 samples.

Results

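The synaptic vesicle and release machinery was examined as a group of 41 genes, taken from the named proteins of synaptic vesicles, their fusion apparatus, the presynaptic active zone and vesicle retrieval. A member was measured by the probe set whose platform annotation gave its symbol alone, and 40 of the 41 had one, among 18166 genes in all. Unc13a was not analysed here. The cord tissue came from male Long Evans rats, about 175 days old and 400 g in weight, with 4 arrays for injury of the thoracic cord (SCI) and 4 for sham surgery, a laminectomy alone. After surgery both groups recovered for 4 weeks and then ate a high-fat diet with 40% fat, in a study of 8 weeks by the labels, so no comparison concerns the diet. The cord piece is given as segments T10-11 in one label and T11-12 in another, and no label says at which level, or by what method, the cord was injured. The labels name 10 rats, of which 8 arrays were analysed here. Each sample title carries 2 numbers, a running one and one before the letter s (4, 6, 7 and 8 for SCI 1 to 4, against 5, 9, 10 and 11 for sham 1 to 4). What these numbers count is not stated, so the p-values measure only the spread between these samples, which may be technical.

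Neurons release transmitter when synaptic vesicles fuse with the presynaptic membrane. Vesicles are filled with transmitter, tethered by synapsins and Rab3 proteins, and held at the active zone by a scaffold of RIM, Bassoon, Piccolo, ELKS and liprin proteins. Fusion is driven by the SNARE proteins synaptobrevin (Vamp1 and Vamp2), syntaxin (Stx1a) and Snap25, is triggered by calcium binding to synaptotagmins, and is followed by endocytosis of the vesicle membrane. In spinal cord these proteins serve the terminals of interneurons, sensory afferents and descending axons. The transcripts sit mainly in cell bodies, and the bodies of descending and sensory neurons lie outside the cord.

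Transcripts of the release machinery were lower in injured cord in most members of every class. Of 40 members, 27 fell at an adjusted p under 0.05, where 7.06% of all genes did. In the other direction 1 member rose, the vesicle GTPase gene Rab3b, where 7.10% of all genes did. The median difference of the 40 members was -0.48 (log2 of SCI over sham), against -0.01 over all genes tested, and 38 of 40 differences were negative, where 52.1% of all genes had one. All SCI arrays lay below all sham arrays in 30 members, against 10.9% of all genes, and above them in 2 members, Rab3b and Sncg, against 9.36%. The falls were moderate. Napb had the most negative difference, at 56.9% of the sham signal, and no member changed by as much as 2-fold in either direction.

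**Figure D1:**
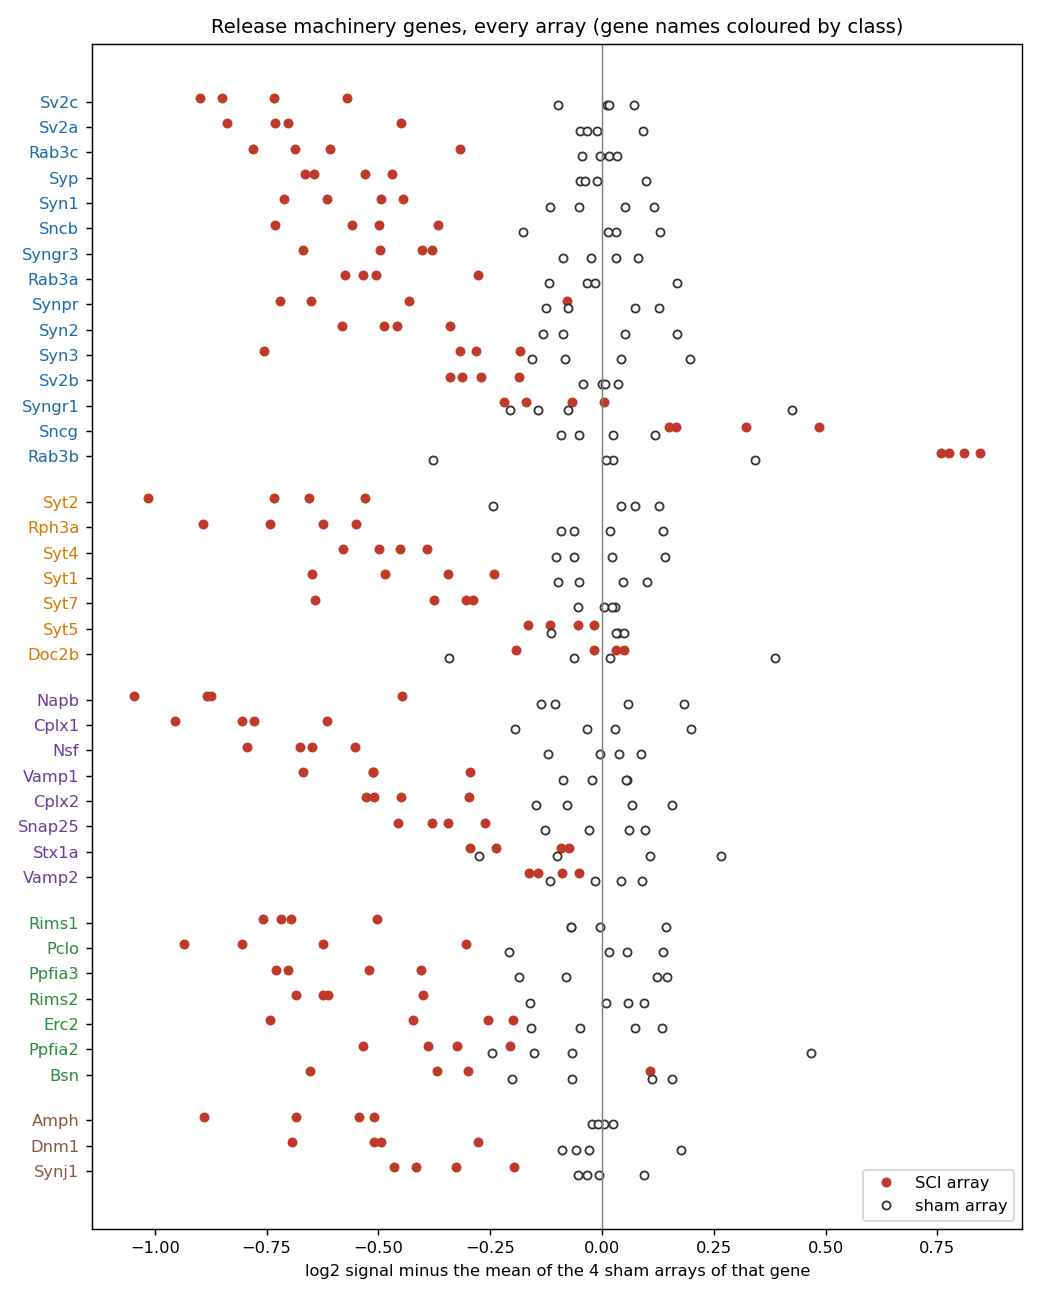
Log2 signal of each of the 40 release machinery genes on every array, as the distance from that gene's mean over the 4 sham arrays (horizontal axis, log2 units). Filled points are SCI arrays and open points sham arrays, and names are coloured by class; in 30 genes all SCI points lie left of all sham points, and in Rab3b and Sncg they lie right of them.

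Apart from injury, the arrays split along a second axis. The first principal component of all genes (45.6% of the variance) parted SCI from sham, and the second (11.2%) set SCI 3, sham 1 and sham 2 (12.6 to 17.2) apart from the other 5 arrays (-14.8 to -4.53). The mean of the 40 members was 6.96, 6.87, 6.90 and 7.07 in SCI 1 to 4, against 7.33, 7.46, 7.38 and 7.35 in sham 1 to 4. The SCI arrays were not alike. SCI 4 had the highest value of its group in 25 of the 40 members, and SCI 2 the lowest in 19. Among the sham arrays, sham 1 was the lowest in 17 members and sham 2 the highest in 17. The mean of 17 myeloid cell markers was 8.17, 8.39, 8.11 and 7.92 in SCI 1 to 4, against 6.28, 6.16, 6.53 and 6.30 in sham 1 to 4. Of the SCI arrays, SCI 2 was thus highest and SCI 4 lowest in myeloid signal, the reverse of their place in release machinery signal. SCI 1 was above SCI 3 in both signals. Among the sham arrays, sham 2 was lowest in myeloid and highest in release machinery signal. Sham 3, highest of them in myeloid signal, was below only sham 2 in release machinery signal. Since RNA came from whole tissue, fewer neurons and less RNA per neuron cannot be told apart. The part of cell mixture in these differences was not tested. The comparison with other neuronal genes given further on cannot test it, since either change would lower neuronal transcripts as a group.

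The count of falls depended on the arrays used. Leaving out 1 array at a time gave 23 to 29 lower members, where 4.29% to 7.06% of all genes were lower. Rab3b was the member called higher each time, where 5.08% to 6.92% of all genes were. Without SCI 3, sham 1 and sham 2, the number of lower members was 10 (1.56% of all genes), and the call of Rab3b was lost (adjusted p = 0.073). The median difference was then -0.42, against -0.48 with all arrays. With fewer arrays the test has less power, so a smaller count is not by itself a smaller difference. With the title number before the letter s as a covariate, 17 members were lower (2.99% of all genes). The 10 members called under each of the 17 alternatives were Sv2a, Sv2c, Syt2, Rph3a, Cplx1, Napb, Nsf, Rims1, Rims2 and Amph.

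Vesicle proteins formed the largest class, with 15 members, of which 9 fell, 1 rose and 5 did not pass the test (median -0.47). Synaptophysin (Syp, probe set 17876317), an abundant membrane protein of vesicles, read 8.82, 8.70, 8.68 and 8.88 in SCI 1 to 4, against 9.33, 9.44, 9.29 and 9.31 in sham 1 to 4. Its groups did not overlap, and the difference was -0.58 (SE 0.09, adjusted p = 0.0022). The SV2 proteins are vesicle glycoproteins needed for normal release. Sv2c (probe set 17744430) read 7.30, 7.14, 7.18 and 7.46 in SCI 1 to 4, against 7.93, 8.05, 8.11 and 8.05 in sham 1 to 4. Every SCI array lay well below every sham array, and the difference of -0.76 (SE 0.10, adjusted p = 7.8e-04) had the smallest p of all members. Sv2a (probe set 17740956) read 7.42, 7.31, 7.45 and 7.70 in SCI 1 to 4, against 8.10, 8.14, 8.12 and 8.24 in sham 1 to 4, a difference of -0.68 (SE 0.10, adjusted p = 0.0019). Sv2b read 7.04, 7.01, 7.08 and 7.17 in SCI 1 to 4, against 7.35, 7.31, 7.36 and 7.39 in sham 1 to 4. Its groups did not overlap either, but the gap was narrower and the difference of -0.28 (SE 0.08, adjusted p = 0.054) missed the threshold, and passed it without SCI 4 (adjusted p = 0.048).

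Synapsins are phosphoproteins that coat vesicles and hold them in a reserve cluster. Syn1 (probe set 17870723) read 8.05, 7.78, 7.88 and 8.00 in SCI 1 to 4, against 8.55, 8.61, 8.44 and 8.38 in sham 1 to 4, with SCI arrays all below sham arrays and a difference of -0.57 (SE 0.10, adjusted p = 0.0041). Syn2 lay at 6.83 to 7.07 in SCI, against 7.28 to 7.58 in sham, a difference of -0.47 (SE 0.10, adjusted p = 0.012). Syn3, whose SCI 3 value of 5.97 was well below the other SCI arrays, had -0.38 (SE 0.14, adjusted p = 0.094). The synaptogyrins and synaptoporin are relatives of synaptophysin. Syngr3 lay at 5.59 to 5.87 in SCI, against 6.17 to 6.34 in sham, a fall of 0.49 (adjusted p = 0.0079). Synaptoporin (Synpr) lay at 4.95 to 5.59 in SCI, against 5.55 to 5.80 in sham, where SCI 4 reached into the sham range, and its difference of -0.47 (SE 0.14, adjusted p = 0.051) passed without SCI 4 (-0.60, adjusted p = 0.0081). Syngr1 overlapped between groups, with sham 2 at 6.56 above all other arrays, and had -0.11 (SE 0.14, adjusted p = 0.69), which turned positive without sham 2 (0.029, adjusted p = 0.90).

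The Rab3 GTPases, which guide vesicles to release sites, went in opposite directions. Rab3a (probe set 17710846), the main isoform of brain synapses, read 7.15, 7.19, 7.22 and 7.45 in SCI 1 to 4, against 7.69, 7.89, 7.60 and 7.71 in sham 1 to 4. All SCI values were below all sham values, and the difference was -0.47 (SE 0.10, adjusted p = 0.013). Rab3c lay at 7.05 to 7.51 in SCI, against 7.78 to 7.86 in sham, a difference of -0.60 (SE 0.11, adjusted p = 0.0052). Rab3b (probe set 17800802), which is also found in secretory cells outside the nervous system, read 6.63, 6.65, 6.72 and 6.68 in SCI 1 to 4, against 5.90, 5.88, 6.22 and 5.50 in sham 1 to 4. Its SCI arrays were tightly grouped and all above the sham arrays, of which sham 4 was low and sham 3 high. The difference was 0.80 (SE 0.14, adjusted p = 0.0037), with a 95% interval of 0.49 to 1.10. The synucleins are small proteins that bind vesicle membranes. Beta-synuclein (Sncb) lay at 6.78 to 7.14 in SCI, against 7.34 to 7.64 in sham, a difference of -0.54 (SE 0.11, adjusted p = 0.0082). Gamma-synuclein (Sncg), abundant in sensory and motor neurons, read 8.34, 8.66, 8.32 and 8.49 in SCI 1 to 4, against 8.20, 8.29, 8.12 and 8.08 in sham 1 to 4, with SCI arrays all above sham arrays, but its difference of 0.28 (SE 0.11, adjusted p = 0.11) did not pass.

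The bases upstream of 4 members are shown. They are the pair of paralogs that were both called, in opposite directions, Rab3b and Rab3a, and Syn1 and Vamp1, the members whose window held a cyclic AMP response element. Each is the 250 bases before the gene's start, 5′ to 3′ on the gene's strand, from RefSeq (GRCr8), with matches to the searched motifs in capitals.
Rab3b (chr5:128858841-128859090, plus strand): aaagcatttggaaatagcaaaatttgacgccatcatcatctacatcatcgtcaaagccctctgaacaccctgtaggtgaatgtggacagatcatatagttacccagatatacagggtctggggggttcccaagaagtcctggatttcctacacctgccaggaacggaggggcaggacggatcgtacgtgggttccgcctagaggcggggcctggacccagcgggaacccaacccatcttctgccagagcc
Rab3a (chr16:18722274-18722523, minus strand): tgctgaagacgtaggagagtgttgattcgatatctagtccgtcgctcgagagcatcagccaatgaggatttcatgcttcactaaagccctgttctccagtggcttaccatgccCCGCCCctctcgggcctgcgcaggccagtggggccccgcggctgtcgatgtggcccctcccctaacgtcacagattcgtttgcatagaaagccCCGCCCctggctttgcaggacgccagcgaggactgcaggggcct
Syn1 (chrX:3725495-3725744, plus strand): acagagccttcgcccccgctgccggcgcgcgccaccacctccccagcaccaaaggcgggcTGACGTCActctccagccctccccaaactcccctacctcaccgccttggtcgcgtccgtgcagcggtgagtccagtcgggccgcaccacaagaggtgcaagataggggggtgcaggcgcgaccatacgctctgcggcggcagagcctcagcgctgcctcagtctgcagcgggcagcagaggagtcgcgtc
Vamp1 (chr4:159698644-159698893, plus strand): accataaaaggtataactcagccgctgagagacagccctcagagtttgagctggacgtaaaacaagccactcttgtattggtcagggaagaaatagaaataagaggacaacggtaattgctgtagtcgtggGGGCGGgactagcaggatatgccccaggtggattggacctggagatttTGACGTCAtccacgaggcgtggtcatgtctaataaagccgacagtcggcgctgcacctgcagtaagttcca

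Such windows were at hand for 31 members and 14503 genes, and 4 motifs were searched on both strands, which can share bases only at their ends. The cyclic AMP response element TGACGTCA, bound by CREB family factors, was in 2 of 31 members (6.45%), Syn1 and Vamp1, and in 2.23% of all genes. It began 190 bases before the start of Syn1 and 71 bases before that of Vamp1. The letters TCAGCACC, the left part of the element bound by the neuronal repressor REST, were in Rab3c, Sncb and Syt4, 3 of 31 (9.68%), and in 1.31% of all genes. The GC box GGGCGG, bound by Sp1 family factors, was in 20 of 31 members (64.5%) and 45.4% of all genes. It matched on the other strand at 137 and 44 bases before the start of Rab3a and on the gene's strand at 119 bases before that of Vamp1. The TATA box letters TATAAA were in none of the 31 members and in 11.3% of all genes. The window of Rab3b held none of the 4 motifs. These are descriptions of letters in a fixed window, with members chosen as a functional group, and were not set against the arrays by any test.

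Calcium sensors had 7 members, of which 5 fell and 2 did not pass (median -0.43). Synaptotagmins 1 and 2 are the fast sensors of synchronous release, and synaptotagmin 2 is the isoform prominent in hindbrain and spinal cord. Syt2 (probe set 17680355) read 7.92, 7.56, 7.84 and 8.04 in SCI 1 to 4, against 8.33, 8.70, 8.65 and 8.61 in sham 1 to 4. The lowest sham array, sham 1, was still above every SCI array, and the difference was -0.73 (SE 0.13, adjusted p = 0.0038). Rabphilin (Rph3a, probe set 17674168), a Rab3 effector with calcium-binding domains, read 7.68, 7.54, 7.80 and 7.88 in SCI 1 to 4, against 8.44, 8.56, 8.34 and 8.36 in sham 1 to 4, a difference of -0.70 (SE 0.10, adjusted p = 0.0017). Syt1 read 7.85, 7.61, 7.45 and 7.75 in SCI 1 to 4, against 7.99, 8.14, 8.20 and 8.04 in sham 1 to 4, again with no overlap, and its smaller difference of -0.43 (SE 0.11, adjusted p = 0.024) lost its call without SCI 2, SCI 3, sham 2, sham 3 or sham 4 (adjusted p of 0.050 to 0.068). Syt4, which lacks normal calcium binding and is found on dense-core vesicles, lay at 6.22 to 6.41 in SCI, against 6.70 to 6.94 in sham, a fall of 0.48 (SE 0.09). Syt7, a slow sensor of asynchronous release, lay at 5.53 to 5.88 in SCI, against 6.12 to 6.20 in sham and had -0.40 (SE 0.10, adjusted p = 0.024), a call lost without SCI 1, SCI 3, sham 1, sham 2 or sham 4 (0.052 to 0.061). Syt5 and the sensor of spontaneous release Doc2b overlapped between groups, with differences of -0.09 (95% interval -0.28 to 0.11) and -0.03 (-0.35 to 0.29).

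Among the SNARE proteins and their regulators, 6 of 8 members fell and 2 did not pass (median -0.47). Napb and Nsf encode beta-SNAP and the ATPase NSF, which pull spent SNARE complexes apart so that they can be used again. Napb (probe set 17777993) read 6.94, 6.76, 6.92 and 7.36 in SCI 1 to 4, against 7.67, 7.70, 7.99 and 7.87 in sham 1 to 4. SCI 4 stood above the other SCI arrays and below all sham arrays, and the difference was -0.81 (SE 0.14, adjusted p = 0.0032). Nsf (probe set 17662242) read 8.71, 8.59, 8.74 and 8.84 in SCI 1 to 4, against 9.27, 9.38, 9.48 and 9.43 in sham 1 to 4, a difference of -0.67 (SE 0.09, adjusted p = 0.0012). Complexins clamp and then promote fusion. Cplx1 (probe set 17687925) read 7.57, 7.38, 7.23 and 7.40 in SCI 1 to 4, against 7.98, 8.21, 8.38 and 8.15 in sham 1 to 4, with every SCI array well below every sham array and a difference of -0.79 (SE 0.11, adjusted p = 0.0013). Cplx2 lay at 6.36 to 6.59 in SCI, against 6.74 to 7.04 in sham, a difference of -0.45 (SE 0.10, adjusted p = 0.016).

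Of the SNAREs themselves, Vamp1 and Snap25 fell, and Vamp2 and Stx1a did not pass. Vamp1 (probe set 17787285), the synaptobrevin that predominates at spinal and neuromuscular synapses, read 10.49, 10.33, 10.49 and 10.70 in SCI 1 to 4, against 10.98, 11.05, 11.05 and 10.91 in sham 1 to 4. The groups did not overlap, and the difference was -0.50 (SE 0.10, adjusted p = 0.0087). Snap25 (probe set 17766669) read 11.80, 11.72, 11.83 and 11.92 in SCI 1 to 4, against 12.15, 12.27, 12.24 and 12.05 in sham 1 to 4, and its difference of -0.36 (SE 0.09, adjusted p = 0.026) lost its call without any 1 of SCI 1, SCI 2, SCI 3, sham 1, sham 2 or sham 3 (adjusted p of 0.052 to 0.078). Vamp2, the synaptobrevin that predominates in forebrain, read 7.07, 7.12, 7.05 and 7.16 in SCI 1 to 4, against 7.20, 7.30, 7.25 and 7.10 in sham 1 to 4. Its groups overlapped by 1 sham array, sham 4, and the difference was -0.11 (SE 0.09, adjusted p = 0.49) with a 95% interval of -0.31 to 0.08. Stx1a read 5.16, 5.10, 5.31 and 5.32 in SCI 1 to 4, against 5.12, 5.66, 5.51 and 5.30 in sham 1 to 4, overlapping through sham 1 and sham 4, with -0.17 (SE 0.13, adjusted p = 0.44). A further probe set of Stx1a had -0.19 (SE 0.12, limma adjusted p = 0.36 over all probe sets with 1 symbol).

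**Figure D2:**
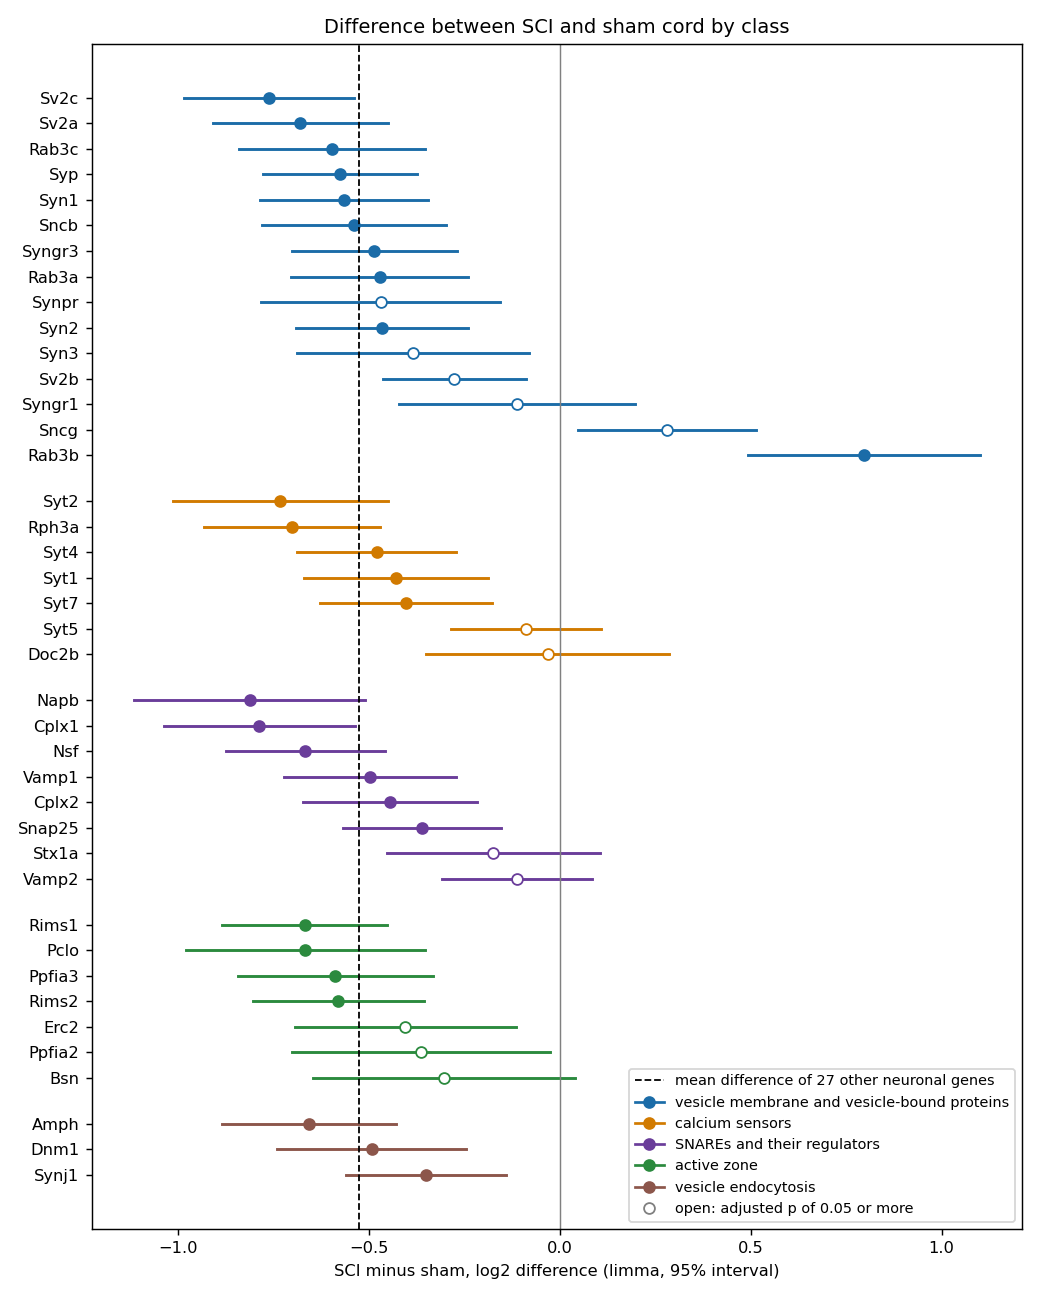
SCI minus sham difference of each member (horizontal axis, log2; limma estimate with its 95% interval, not adjusted for the number of genes), ordered by class. Filled points passed an adjusted p of 0.05 and open points did not; most points lie near the dashed line at -0.53, the mean difference of 27 other neuronal genes, and Rab3b lies far to its right at 0.80.

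Of the 7 active zone members analysed, 4 fell and 3 did not pass, and all 7 differences were negative (median -0.58). RIM proteins tether calcium channels and vesicles at release sites. Rims1 (probe set 17863422) read 6.37, 6.39, 6.32 and 6.58 in SCI 1 to 4, against 7.01, 7.08, 7.01 and 7.23 in sham 1 to 4, with wide separation of the groups and a difference of -0.67 (SE 0.10, adjusted p = 0.0015). Rims2 lay at 5.45 to 5.74 in SCI, against 5.98 to 6.23 in sham, a difference of -0.58 (SE 0.10, adjusted p = 0.0040). Piccolo and Bassoon are giant scaffold proteins of the active zone. Piccolo (Pclo) read 6.06, 5.88, 5.75 and 6.38 in SCI 1 to 4, against 6.74, 6.70, 6.48 and 6.82 in sham 1 to 4, varied more within the SCI group than most members, and had -0.67 (SE 0.14, adjusted p = 0.010). Bassoon (Bsn) lay at 4.20 to 4.96 in SCI, against 4.65 to 5.01 in sham, with overlapping groups, a level near the median of all genes and a difference of -0.30 (SE 0.16, adjusted p = 0.25). The liprin gene Ppfia3 lay at 5.13 to 5.45 in SCI, against 5.67 to 6.00 in sham, a fall of 0.59 (adjusted p = 0.0070), and Ppfia2 at 5.14 to 5.47 in SCI, against 5.43 to 6.14 in sham, where sham 2 was high and the difference of -0.36 did not pass (0.15). The ELKS gene Erc2 lay at 5.24 to 5.78 in SCI, against 5.82 to 6.12 in sham, without overlap, and missed the threshold at -0.40 (0.066).

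The 3 members of vesicle endocytosis all fell. Amphiphysin (Amph, probe set 17719703), which bends the membrane and recruits dynamin, read 7.33, 7.12, 7.50 and 7.47 in SCI 1 to 4, against 8.02, 8.04, 7.99 and 8.01 in sham 1 to 4. The sham arrays were close to each other and the SCI arrays more spread, and the difference was -0.66 (SE 0.10, adjusted p = 0.0022). Dynamin 1 (Dnm1), the GTPase that pinches vesicles off, lay at 8.80 to 9.21 in SCI, against 9.40 to 9.67 in sham, a difference of -0.49 (SE 0.11, adjusted p = 0.014). Synaptojanin 1 (Synj1), a lipid phosphatase that helps strip the clathrin coat, lay at 8.34 to 8.61 in SCI, against 8.75 to 8.90 in sham. Its difference of -0.35 (SE 0.09, adjusted p = 0.032) was lost without any 1 array but SCI 4 (adjusted p of 0.054 to 0.089).

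Whether close paralogs changed by the same amount was asked in 14 pairs of members, compared through the within-array log2 difference of the 2 genes, tested by exact permutation of the arrays between groups (two-sided, 70 arrangements). In 4 pairs the values of SCI and sham did not overlap, which is the smallest p this design allows (0.029), and adjusted over the 14 pairs this was 0.10, so none passed. Rab3a changed by -1.27 relative to Rab3b, Sncb by -0.82 relative to Sncg, Sv2a by -0.40 relative to Sv2b and Vamp1 by -0.39 relative to Vamp2. Syt1 against Syt2 gave 0.30 and Rims1 against Rims2 gave -0.09, both at an exact permutation p of 0.057 (adjusted 0.13). For the synapsins, Syn1 against Syn2 gave -0.10 (exact p = 0.14), and for the complexins, Cplx1 against Cplx2 gave -0.34 (exact p = 0.11). The other 6 pairs (Syn1 and Syn3, Sv2a and Sv2c, Rab3a and Rab3c, Bsn and Pclo, Ppfia2 and Ppfia3, Syngr1 and Syngr3) had exact p of 0.11 to 0.31.

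**Figure D3:**
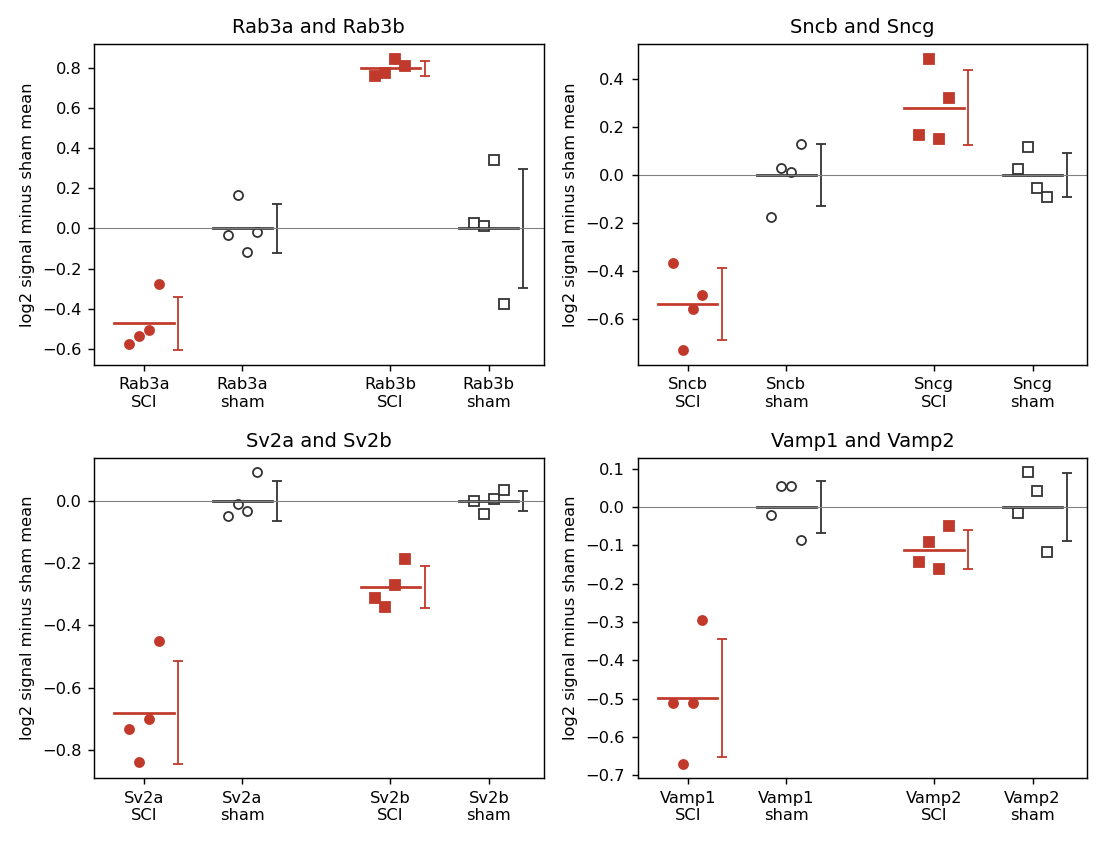
Log2 signal on every array for the 4 paralog pairs whose within-array difference did not overlap between groups, as the distance from that gene's sham mean (vertical axes, log2 units, scaled separately). Filled symbols are SCI arrays and open symbols sham arrays, with lines at the means and bars of 1 SD (n = 4); Rab3a lies lower in SCI (-0.47) and Rab3b higher (0.80), and the SCI means lie at -0.50 for Vamp1 and -0.11 for Vamp2.

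Neuronal members were also set against relatives that many cell types use for general membrane traffic, in 9 pairs. In 4 of these the within-array differences did not overlap (exact permutation p = 0.029, adjusted 0.064), and the member was the lower in each. Dnm1 changed by -0.51 relative to Dnm2, Erc2 by -0.58 relative to Erc1, Ppfia3 by -0.68 relative to Ppfia1 and Napb by -0.73 relative to Napa. Rab3a against Rab3d gave -0.47 (exact p = 0.057, adjusted 0.10). The differences of the relatives themselves were 0.01 for Dnm2, 0.17 for Erc1, 0.09 for Ppfia1, -0.09 for Napa and -0.0034 for Rab3d, none of which passed. Vamp2 against Vamp3 (-0.15), Amph against Bin1 (-0.16), Syp against Sypl1 (-0.04) and Stx1a against Stx4 (0.00074) had exact p of 0.14 to 1.0. Bin1, an amphiphysin also abundant in oligodendrocytes, itself fell by 0.50 (adjusted p = 0.0052), and Sypl1 by 0.54 (0.018), a call lost without SCI 1 or SCI 2 (0.051 to 0.057).

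A list of 22 widely expressed relatives held those of the pairs except Napa, which was listed with the other release genes. Of these 22, 4 rose and 2 fell (median 0.07), where 7.10% of all genes rose and 7.06% fell. The 2 that fell are 9.09% of the list, close to the share of all genes. Those that rose were Vamp8 at 0.74 (SE 0.11, adjusted p = 0.0013), a SNARE of endosomes and of secretion in blood cells, Stxbp2 at 0.90 (SE 0.14, adjusted p = 0.0020), a Munc18 protein of non-neuronal secretion, Rab27a at 0.68 (SE 0.13, adjusted p = 0.0069), a GTPase of lysosome-related organelles, and Snap29 at 0.43 (SE 0.11, adjusted p = 0.028). Rab27a and Snap29 were named after their values were seen. The call of Snap29 was lost without any 1 of SCI 1, SCI 2, SCI 3, sham 1, sham 2 or sham 4 (0.054 to 0.074). The 17 myeloid markers, of which 16 rose, moved in the same direction as Vamp8, Stxbp2 and Rab27a, and their part in these rises was not tested.

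Of 58 other genes of transmitter release that are not members, 17 fell (29.3%, against 7.06% of all genes) and 1 rose, where 7.10% of all genes did (median -0.27). Among further synaptotagmin and Doc2 genes, not all of which need be calcium sensors, 5 of 10 fell. They were Doc2a at -0.72 (SE 0.14, adjusted p = 0.0059), Syt11 (-0.43), Syt13 (-0.62), Syt12 (-0.57) and Syt10 (-0.40). Syt12 lost its call without SCI 3, sham 2, sham 3 or sham 4 (0.052 to 0.075) and Syt10 without any 1 array but SCI 4 (0.055 to 0.12). Of 12 endocytosis genes 5 fell, the clathrin adaptor Snap91 at -0.63 (SE 0.10, adjusted p = 0.0018), Dnm3 (-0.49), Pacsin1 (-0.58) and the endophilins Sh3gl3 (-0.53) and Sh3gl2 (-0.50). Of 10 vesicle genes 4 fell, all but Svop transporters that load transmitter. The glutamate transporter Slc17a6 had -1.04 (SE 0.14, adjusted p = 0.0011), the GABA and glycine transporter Slc32a1 -0.64, Svop -0.47 and the glutamate transporter Slc17a7 -0.52. Slc17a7 was dim, with a mean log2 signal over all arrays of 3.70, against a median of 4.74 over all genes. Svop lost its call without SCI 2 or sham 4 (0.050 to 0.054) and Slc17a7 without SCI 2 or any 1 sham array (0.052 to 0.077).

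Of 16 further active zone and priming genes, the dense-core vesicle priming factor Cadps at -0.60 (SE 0.10, adjusted p = 0.0033) and Unc13c (-0.54) fell, while Rab3il1, an exchange factor that acts on Rab proteins, rose by 0.71 (SE 0.11, adjusted p = 0.0024). These 2 falls are 12.5% of the list, not far from the 7.06% of all genes that fell, and 7.10% of all genes rose. Of 10 further SNARE genes and regulators, Stxbp5l, a tomosyn that restrains SNARE assembly, fell by 0.71 (adjusted p = 0.017), a call lost without sham 4 (0.053), and 1 in 10 is also near the share of all genes. Snap47 (-0.34, adjusted p = 0.069) and Prrt2 (-0.31, 0.078) did not pass, and Snap47 passed without SCI 2 (0.029). Syt10, Syt12, Slc17a7, Sh3gl2 and Sh3gl3 were named after their values were seen.

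The 58 other release genes had a median difference of -0.27. Their median log2 signal was 6.02, against 7.20 for the 40 members and 8.12 for the neuronal genes compared next. Whether signal level plays a part in the smaller difference was not tested, and the members and lists were chosen with earlier results of these data known. The 40 members fell by about as much as neuronal genes listed outside the release machinery. Of 27 such genes, among them Ina, Elavl2 and Nefm, 24 fell, with a median of -0.52, and their mean was 7.67, 7.51, 7.62 and 7.76 in SCI 1 to 4, against 8.15, 8.24, 8.15 and 8.13 in sham 1 to 4. When each array was set relative to this mean and the limma model run again over all genes, the median of the 40 members was 0.05, and 32 members did not pass. On this scale no member was lower, where 0.380% of all genes were. At an unadjusted p under 0.05, 2 of the 40 members were lower, where 81 of all 18166 genes were. The other 8 members had a more positive difference than the neuronal genes, where 77.2% of all genes were (77.5% called in either direction), since on this scale a gene with equal signal in both groups has a difference of about 0.53. An adjusted p of 0.05 here corresponded to an unadjusted p of 0.0388, against 0.00707 for the plain comparison, so the test is more lenient.

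Relative to the neuronal genes, the difference between SCI and sham was 1.33 for Rab3b (SE 0.15, adjusted p = 4.6e-05) and 0.81 for Sncg (SE 0.13, adjusted p = 4.0e-04). The others were Doc2b (0.50), Syt5 (0.44), Vamp2 (0.42), Syngr1 (0.42), Stx1a (0.35) and Sv2b (0.25), members whose plain differences had not passed. Doc2b was dim, with a mean log2 signal over all arrays of 3.94, against a median of 4.74 over all genes. The call of Sv2b was lost without any 1 of the 8 arrays (adjusted p of 0.050 to 0.096), that of Stx1a without SCI 3, sham 1 or sham 4 (0.051 to 0.071) and that of Syngr1 without sham 4 (0.053), which left 5. Without SCI 3, sham 1 and sham 2 together the number was also 5, with Sv2b, Stx1a and Syt5 lost (0.063 to 0.27). Sv2b and Syngr1 were lost with the covariate too (0.083 to 0.094). The most negative members were Napb (-0.29, adjusted p = 0.060), Cplx1 (-0.26, 0.073) and Sv2c (-0.24, 0.054). Napb passed without SCI 4 (-0.37, adjusted p = 0.022) and without sham 2 (-0.34, 0.041).

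**Figure D4:**
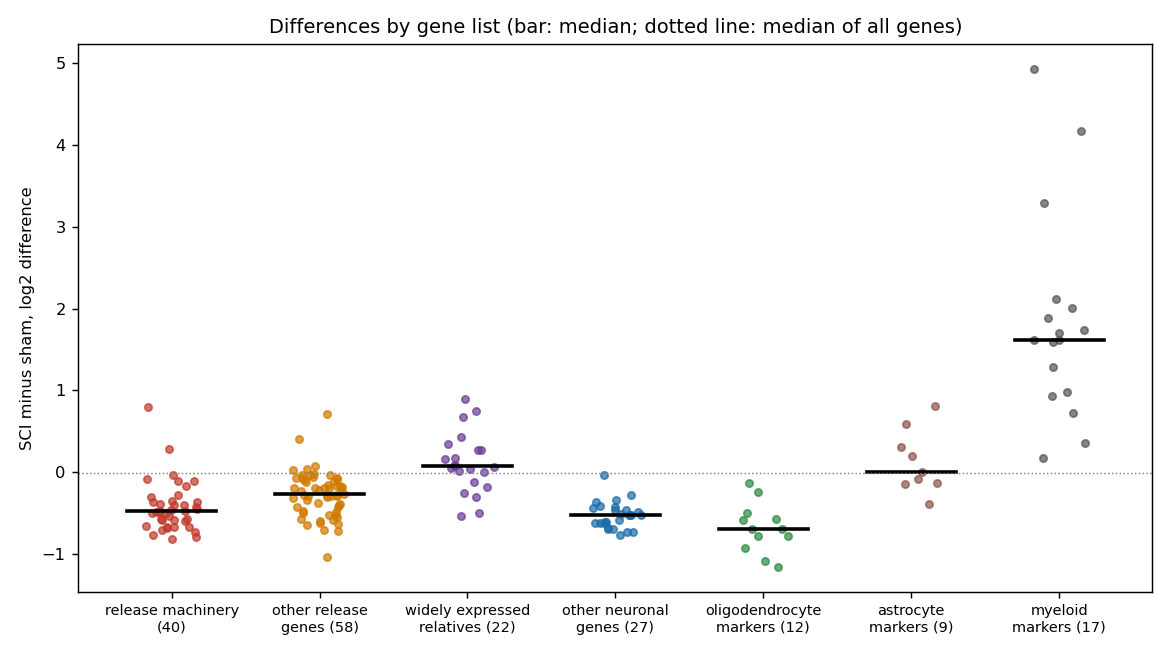
SCI minus sham difference (vertical axis, log2) of each gene in 7 lists, with the number of genes in parentheses, a bar at each list's median and a dotted line at the median of all genes. The release machinery (median -0.48) and the other neuronal genes (-0.52) both lie mostly below the median of all genes, and the oligodendrocyte markers have the lowest median (-0.70). The widely expressed relatives (0.07) lie around the median of all genes and the myeloid markers (1.62) above it.

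The markers of other cells in the same arrays moved as follows, where 7.10% of all genes rose and 7.06% fell. The 17 myeloid markers (16 higher, led by Gpnmb, Cd68 and Lgals3) had the array means given above. Oligodendrocyte markers (10 of 12 lower, led by Fa2h, Hapln2 and Mog) averaged 8.92 to 9.21 in SCI arrays and 9.68 to 9.75 in sham arrays. Astrocyte markers (2 of 9 higher, Gfap and Gja1, and 1 lower, Slc1a2) averaged 9.18 ± 0.02 in SCI and 9.05 ± 0.05 in sham (SD, n = 4 each), and the call of Slc1a2 was lost in 6 of the 8 omissions of 1 array (adjusted p of 0.064 to 0.088). Schwann cell markers (4 of 7 higher, led by Scn7a, Pmp22 and Ncmap) averaged 6.23 to 6.58 in SCI and 5.57 to 5.89 in sham, and fibroblast and vessel markers (4 of 8 higher, led by Col1a2, Vtn and Col1a1) 7.20 to 7.70 in SCI and 6.52 to 6.92 in sham. In that last list the endothelial gene Cldn5 did not rise (-0.20, limma adjusted p = 0.34), and Pecam1 was not analysed here. No array holds a true zero and no detection calls were used, so no marker can be called absent. As a check of the labelled tissue, Mbp and Gfap were at a mean log2 signal over all arrays of 11.33 and 11.28, the glycinergic gene Slc6a5 at 7.72 and the GABAergic gene Gad1 at 6.38, the thoracic-level Hox genes Hoxc8, Hoxa7 and Hoxc9 at 8.11, 7.23 and 5.31, and Chat, of motor neurons, at 4.73, close to the median of all genes of 4.74.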

How the data were processed

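RNA of 8 cord samples was run on Affymetrix Rat GeneChip 2.0ST microarrays, per the labels' protocols. The authors deposited log2 values made with Affymetrix Expression Console and RMA, per the submitters' processing notes. No label gives versions, settings or a build, and the log base was read from RMA and the range of values. RMA compresses differences of dim probe sets. Array medians were 3.73 to 3.81, and the 4 arrays of each group limit the precision.

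Of 36685 probe sets, 18511 had 1 symbol, 575 several and 17599 none here. Of these, 18394 matched RefSeq (GRCr8) by gene ID and 0 symbols changed. The probe set with the highest mean represented a gene, which left 18166 genes. The fit of SCI against sham used limma 3.58.1 under R 4.3.3, with lmFit, eBayes and no covariate, and Benjamini-Hochberg adjustment over all genes, and a gene was called at an adjusted p under 0.05. The same model was run after subtracting the mean of 27 neuronal genes from each array. Pairs of genes were compared by exact permutation, with adjustment within each family of pairs. The code was tested on simulated data.

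Replicate numbers follow the accessions and pair no samples. The members and lists were chosen with earlier results of these data known. All members were named, with the 3 genes of smallest p in each other list, the genes of the pairs and the tissue check genes. Rab27a, Snap29, Slc17a7, Syt10, Syt12, Sh3gl2 and Sh3gl3 were named after their values were seen. Alternatives changed the prior variance, scaling, filter, array weights, covariate, probe set summary and the arrays used.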

Additional observations from a re-analysis of the deposited data

Results flagged for a closer look

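Within a group of 4 arrays, 1 of the 80 sets of member values held a sample far from the others, where chance alone gives about 1 in 20. The calcium sensor Syt5 read 5.714 on sham 1, while the other sham arrays lay between 5.86 and 5.88. The gap was 0.898 of the whole range of the group, above the critical value of Dixon's test for 4 values. Syt5 had no call in the comparison of SCI with sham and none when sham 1 was left out.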

How the results depend on the processing

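Of 28 called members, 10 kept their call under all 17 alternatives, 24 under each omission of 1 array, and none changed sign. Members lower in SCI numbered 23 to 29 over the omissions of 1 array (4.29% to 7.06% of all genes). They numbered 17 with the title number before the letter s as covariate (2.99% of all genes), which runs partly with the groups. Without SCI 3, sham 1 and sham 2 they numbered 10 (1.56% of all genes), where fewer arrays also leave the test less power. The cause was not tested. Members higher in SCI numbered 2 with an intensity trend in the prior (8.46% of all genes), Sncg being added. They also numbered 2, with Sncg, with genes at or above the median level (38 members tested, 15.1% of the genes kept). Without the 3 arrays the number was 0 (3.1% of all genes), and limma gave Rab3b an adjusted p of 0.073. The median difference of members lay between -0.53 and -0.42. Relative to neuronal genes, lower members numbered 3 with the intensity trend (Cplx1, Napb and Sv2c). They numbered 2 with the filter and 2 with array weights (Napb and Sv2c each time), and 0 to 1 over the omissions of 1 array (Napb). Higher ones numbered 5 to 8 over those omissions and 5 without the 3 arrays. The shares of all genes on this scale were taken only in the main fit (0.380% lower, 77.2% higher). The counts under the alternatives therefore have no share to be read against. Pairs whose groups did not overlap numbered 8 to 12 over the omissions of 1 array and 17 without the 3 arrays, where fewer arrays make this easier. In the full set 0 pairs passed the adjusted permutation test, against 8 at an unadjusted p under 0.05, and 0 passed in any omission of 1 array. Without the 3 arrays that test cannot pass. Centring arrays on their median gave 30 lower and 1 higher member, and 9.57% lower and 6.08% higher among all genes, against 7.06% and 7.10% uncentred.

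Differences that changed sign were all far from the threshold. Over the omissions of 1 array, Doc2b ran from -0.15 to 0.096 (positive without SCI 2, 0.021, and sham 2), Syngr1 from -0.18 to 0.029 (without sham 2), Dnm2 from -0.014 (without sham 4) to 0.048 (-0.00865 without SCI 2), Hoxc8 from -0.0093 (without sham 4) to 0.12, and Rab3d from -0.065 to 0.12 (positive without SCI 1, sham 2, 0.020, or sham 3, 0.049). Without the 3 arrays Doc2b was 0.11 and Syngr1 0.023. Doc2b was 0.0086 with array weights. With centring Dnm2 was -0.038, Vamp3 -0.016 and Hoxc8 -0.00467. With the covariate Dnm2 was -0.044, Ppfia1 -0.013 and Rab3d 0.095. Of 46 other named genes with a call, 21 kept it under every alternative and 24 lost it without the 3 arrays. No paired analysis was possible because the labels give the groups no shared replicate numbers.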
